A study of Mus musculus with 6 samples.

Results

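Cortical interneurons are the inhibitory neurons of the cerebral cortex. They are born outside it, in the ganglionic eminences of the ventral telencephalon, and travel tangentially into the cortical wall during mid-gestation. On the way they already make the transmitter GABA, and they steer by surface receptors, among them the neuregulin receptor ErbB4 and the receptors Cxcr4 and Ackr3 for the chemokine Cxcl12. A group of 9 genes of these migrating cells was examined here, chosen by name: Lhx6, Gad1, Gad2, Slc32a1, Erbb4, Cxcr4, Ackr3, Sst and Npy. All 9 had a row among the 45583 gene symbols of the count table, and all 9 were among the 13741 genes with enough counts to be tested.

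RNA sequencing read counts came from the cortex of 6 male mouse fetuses of the Cyp19-EGFP strain at GD15.5 (gestational day). The age is that of the labels and the study's methods, while its results text gives a later embryonic day. The genotype of each fetus is labelled WT, SRY +. The transgene of the strain is an added copy of the aromatase gene with a green fluorescent protein inserted, and a WT label may mean that a fetus lacked it. Dams had received bisphenol A (BPA) at 50 µg/kg by injection from GD10.5 to GD14.5 in 3 cases (n = 3 libraries), or the peanut oil vehicle in the other 3. Litters are not named in the labels, so p-values measure the spread between these fetuses, some of which could share a dam. Total counts ran from 3444601 in BPA replicate 3 to 7180835 in vehicle replicate 2, and 3 counts, the limit that a count of 0 allows from counting error alone, came to 0.418 to 0.871 CPM (counts scaled to library size). Dorsal pallium markers (17 of 17) and ventral telencephalon markers (19 of 20) were both detected well enough to be tested, at summed levels of 3534 to 4236 CPM and 405 to 559 CPM. RNA of neighboring tissues varied from library to library. The summed level of 8 choroid plexus markers was 238 CPM in vehicle replicate 2 and 373 CPM in BPA replicate 2 against 23.1 to 27.3 CPM in the other 4 libraries, and the summed level of 11 meningeal markers was highest in vehicle replicate 3 (132 CPM) and BPA replicate 2 (99.9 CPM).

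The stretch of DNA before the transcription start is shown for 6 of the genes, because it is the part of each locus whose motifs can be compared between them. Sequences are those of RefSeq on GRCm38.p6, 5′ to 3′ on the strand of the gene, and all 9 genes were found in that table, with 11 starts between them. Capitals mark 3 motifs, on either strand. The first is TGACGTCA, the cAMP response element (CRE) to which CREB binds. The second is the TATA box, spelled TATAAA. The third is the GC box, spelled GGGCGG. Lhx6 and Slc32a1 are shown as the genes with the smallest p-values below, Cxcr4 and Ackr3 as receptors for one ligand, and Npy and Sst as the neuropeptide genes. For Lhx6, which has several starts, only the stretch before the most upstream of them is shown.
Lhx6 (chr2:36105409-36105508, minus strand): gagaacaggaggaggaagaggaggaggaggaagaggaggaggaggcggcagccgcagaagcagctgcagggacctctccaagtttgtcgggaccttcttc
Slc32a1 (chr2:158610658-158610757, plus strand): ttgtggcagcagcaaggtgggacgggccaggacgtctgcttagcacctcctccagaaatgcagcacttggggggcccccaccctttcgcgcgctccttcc
Cxcr4 (chr1:128592300-128592399, minus strand): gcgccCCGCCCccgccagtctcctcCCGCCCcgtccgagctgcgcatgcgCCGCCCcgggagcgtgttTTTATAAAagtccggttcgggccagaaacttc
Ackr3 (chr1:90203880-90203979, plus strand): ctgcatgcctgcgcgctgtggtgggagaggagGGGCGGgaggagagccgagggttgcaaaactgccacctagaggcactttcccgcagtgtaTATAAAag
Npy (chr6:49822610-49822709, plus strand): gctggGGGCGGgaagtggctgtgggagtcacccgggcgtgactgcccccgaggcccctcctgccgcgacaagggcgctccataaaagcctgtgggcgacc
Sst (chr16:23890874-23890903, minus strand): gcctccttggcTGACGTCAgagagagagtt

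Among the 9 genes, the CRE was found in Sst, where it began 48 bases before the start, and not in the 250 bases before any start of the other 8. Of all 32851 RefSeq windows of that length, 1.55% held this palindrome. The Sst stretch lies inside an exon of a longer transcript in GENCODE M21. Of the 100 bases before the Gad1 start, 87 are annotated as exon there, as are all 100 before the Gad2 start. A TATA box was found before Cxcr4, Ackr3 and Gad1, in 3 of the 11 windows of the 9 genes, against 12.4% of all windows. In Cxcr4 it overlaps its own reverse complement and begins 30 bases before the start. In Ackr3 it begins 8 bases and in Gad1 141 bases before the start. A GC box was found before 5 of the 9 genes (Lhx6, Gad1, Cxcr4, Ackr3 and Npy), in 6 of the 11 windows, against 32.7% of all windows. The printed Lhx6 stretch holds none. The GC boxes of Lhx6 begin 146 bases before the start shown and 48 bases before another of its starts. The homeodomain motif TAATTA was found before none of the 9 genes, against 4.84% of all windows. These matches describe letters in the windows and say nothing of binding.

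Levels can be compared roughly between genes once the CPM are divided by exonic length, which ran from 566 bases in Npy to 12355 bases in Erbb4. This length joins the exons of all annotated transcripts of a gene, whether or not they are used in this tissue. The order of the genes therefore depends on the annotation. On this scale, in CPM per kilobase, the neuropeptide transcript Sst was the most abundant of the 9, at 109 ± 17.1 in vehicle and 98.2 ± 11.3 in BPA (SD, n = 3 each). Npy came next at 53.9 ± 6.54 in vehicle and 46.9 ± 10.0 in BPA. Every library of Sst stood above every library of Npy within the same group. In vehicle, every library of Npy stood above every library of the genes that follow. In BPA, Npy overlapped with Cxcr4, since Npy was at 35.5 in BPA replicate 1 and Cxcr4 at 37.6 in BPA replicate 3. Lhx6 (31.2 ± 1.83 in vehicle), Cxcr4 (30.8 ± 7.12) and Gad2 (29.0 ± 3.45) followed, and their vehicle libraries overlapped. In BPA, all libraries of Cxcr4 (33.4 ± 3.68) were above those of Lhx6 (27.1 ± 1.14) and those of Gad2 (26.4 ± 0.696). Gad1 (17.9 ± 2.14 in vehicle) and Slc32a1 (17.3 ± 0.952) overlapped with each other, and in BPA Slc32a1 overlapped with Ackr3 as well. Ackr3 (14.1 ± 0.507) and Erbb4 (10.0 ± 1.75) were the lowest, and the libraries of each did not overlap with those of the other in either group. The order was the same in vehicle and BPA apart from the exchange of Lhx6 and Cxcr4.

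**Figure D1:**
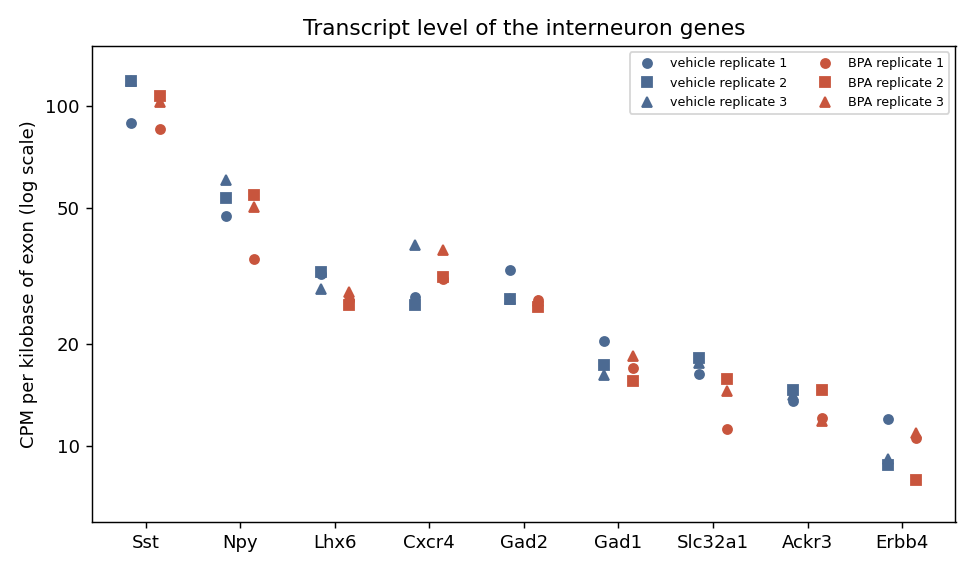
Level of the 9 interneuron genes in each library, in CPM per kilobase of exon on a log axis, with genes ordered by their vehicle mean and symbols marking the replicate. Sst lies between 85.4 and 119 in all 6 libraries and Erbb4 between 7.97 and 12.01.

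The question put to these genes was whether maternal BPA altered the transcripts of migrating interneurons in the fetal cortex. The threshold was a Benjamini-Hochberg adjusted p of 0.1 from the quasi-likelihood test of edgeR. None of the 9 passed it, and neither did any of the 13741 genes (0%). At an unadjusted p under 0.05 there were 2 of the 9, Slc32a1 and Lhx6, both lower in BPA, where 1.18% of all genes tested were lower at that level, 1.02% were higher and 2.20% were past it in either direction. DESeq2 and edgeR's exact test each left 1 of the 9 at that level, and limma-voom left 2. The log2 fold change was below 0 for 8 of the 9 genes, against 49.5% of all genes, and the median over the 9 was -0.14, against 0.0016 over all genes tested. In 3 of the 9 (Lhx6, Gad2 and Slc32a1) every BPA library was below every vehicle library, which was so for 3.56% of all genes, and the opposite order, seen in none of the 9, for 3.19%. The 9 genes are active in overlapping sets of cells and were read from the same libraries, so they are not independent of each other. They were also chosen with earlier results of these data known, so their counts beside the shares of all genes are a description. In bulk tissue, fewer interneurons, less RNA per interneuron and a smaller share of ventral telencephalon in the dissected tissue cannot be told apart. Ventral telencephalon markers, most of them lower in BPA, are given below. The 9 genes together took 0.0874%, 0.0810% and 0.0828% of the counts in the vehicle libraries and 0.0750%, 0.0759% and 0.0815% in the BPA libraries, so the shares overlapped through BPA replicate 3.

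**Figure D2:**
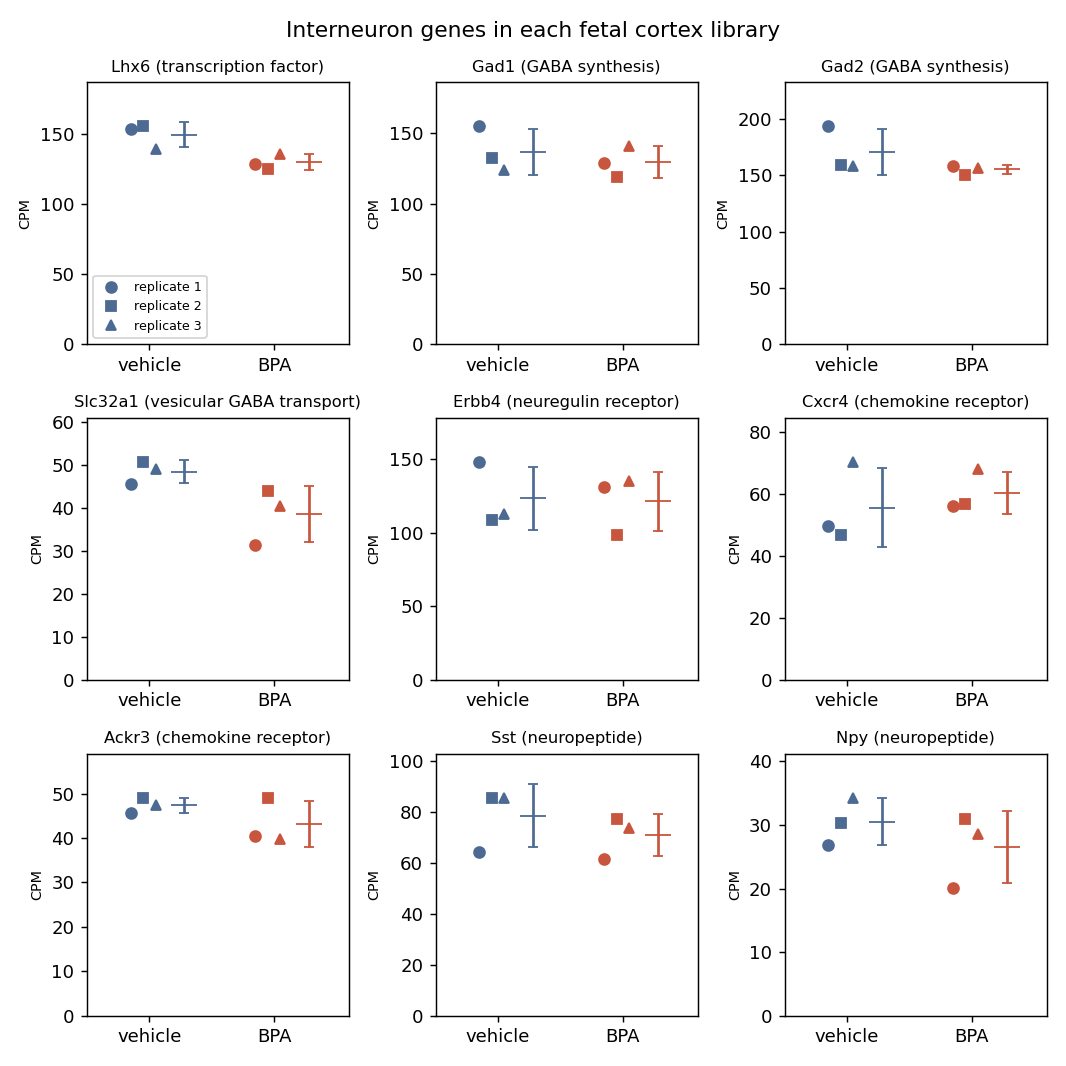
CPM of each of the 9 interneuron genes in the 3 vehicle and 3 BPA libraries, with points for libraries, symbols for replicate numbers, and the mean with SD beside them. The groups are apart for Lhx6, Gad2 and Slc32a1 and overlap for the other 6.

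Lhx6 (ENSMUSG00000026890.19, GRCm38 chr2:36081953-36105408, minus strand) encodes a LIM homeodomain transcription factor that interneurons of the medial ganglionic eminence keep while they migrate and mature. It was at 154, 156 and 139.6 CPM in the vehicle libraries and at 129, 125 and 136 CPM in the BPA libraries. All 3 BPA values were below the lowest vehicle value, by a narrow gap between BPA replicate 3 and vehicle replicate 3. The fitted log2 fold change was -0.21 (SE 0.0969), and edgeR's unadjusted p of 0.0492 became an adjusted p of 0.9998. The 95% interval ran from 0.751 to 0.999 times the vehicle level. The unadjusted p was 0.0596 with DESeq2, 0.168 with all libraries thinned to the smallest total, and above 0.05 in 5 of the 6 fits that each left out 1 library (0.0474 to 0.119), with the log2 fold change below 0 in all of them.

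GABA is made from glutamate by glutamate decarboxylase, of which Gad1 encodes the enzyme that supplies most GABA of the cell body and Gad2 the enzyme linked to nerve terminals. Gad1 (ENSMUSG00000070880.10, chr2:70553072-70602014, plus strand) was at 155, 132 and 124 CPM in vehicle and at 129, 119 and 141 CPM in BPA. The BPA values lay within or just below the vehicle range, and the highest BPA library exceeded 2 of the 3 vehicle libraries. Its log2 fold change was -0.09 (SE 0.111), with an interval from 0.801 to 1.11 times the vehicle level. Without vehicle replicate 1, the highest of the 6, the log2 fold change of Gad1 was 0.01. An antisense transcript that crosses the locus, Gad1os, had from 0 to 5 counts per library and shares no exonic base with Gad1.

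Gad2 (ENSMUSG00000026787.3, chr2:22622205-22693874, plus strand) was at 194, 159 and 159 CPM in vehicle and at 158, 151 and 157 CPM in BPA. The groups did not overlap, but the highest BPA library (158.5 CPM) and the lowest vehicle library (158.7 CPM) differed by less than the spread within either group. Its log2 fold change was -0.14 (SE 0.104), with an interval from 0.781 to 1.06 times the vehicle level. Vehicle replicate 1 set most of that difference, since without it the log2 fold change was -0.03. The ratio of Gad1 to Gad2 counts, which does not depend on library scaling, averaged -0.32 ± 0.047 in vehicle and -0.26 ± 0.099 in BPA (SD, n = 3 each) on the log2 scale. The exact two-sided permutation p for that ratio was 0.6, and 3 libraries against 3 cannot go below 0.1. The vehicle values of the ratio were -0.32, -0.27 and -0.36 and the BPA values -0.29, -0.34 and -0.15, so the groups overlapped.

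Slc32a1 (ENSMUSG00000037771.11, chr2:158610767-158615748, plus strand) encodes the vesicular transporter that loads GABA and glycine into synaptic vesicles. It was at 45.6, 50.8 and 49.1 CPM in vehicle and at 31.4, 44.0 and 40.6 CPM in BPA. No BPA library reached the lowest vehicle value, and BPA replicate 1 was the lowest by a clear margin. Slc32a1 had the largest log2 fold change of the 9, at -0.33 (SE 0.134), and edgeR's unadjusted p of 0.0253 became an adjusted p of 0.9998. The 95% interval ran from 0.652 to 0.968 times the vehicle level. The size of the difference rested on BPA replicate 1: without it the log2 fold change was -0.19, at an unadjusted p of 0.180 in the same edgeR test. That p was also above 0.05 without vehicle replicate 2 (0.0628 in edgeR) and without vehicle replicate 3 (0.0572 in edgeR). The antisense gene Gm14205 covers 697 exonic bases of Slc32a1. If strand is ignored, 23.7% of the 50-base words of Slc32a1 transcripts match both genes. How such reads were assigned is not given in the sources used here, and they may have been counted for neither gene. Gm14205 had from 1 to 7 counts per library against 139 to 361 for Slc32a1.

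Erbb4 (ENSMUSG00000062209.15, chr1:68032186-69108059, minus strand) encodes the receptor tyrosine kinase by which neuregulins attract migrating interneurons. It was at 148, 109 and 113 CPM in vehicle and at 131, 98.5 and 135 CPM in BPA. The groups overlapped throughout, with BPA replicates 1 and 3 above vehicle replicates 2 and 3. For Erbb4 the log2 fold change was -0.03 (SE 0.139), with an interval from 0.799 to 1.202 times the vehicle level, and its sign turned in 4 of 18 alternative fits. The scatter within each group (SD of 21.7 CPM in vehicle and 20.05 CPM in BPA) was larger than the difference between the means.

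Cxcr4 (ENSMUSG00000045382.6, chr1:128588199-128592293, minus strand) encodes the G protein-coupled receptor that signals the presence of Cxcl12 and keeps interneurons in their migratory streams. It was at 49.6, 46.9 and 70.4 CPM in vehicle and at 56.1, 56.9 and 68.0 CPM in BPA. Cxcr4 was the only one of the 9 with a mean that was higher in BPA, and the groups overlapped through vehicle replicate 3. In the fit its log2 fold change was 0.12 (SE 0.148), with an interval from 0.872 to 1.35 times the vehicle level. Without vehicle replicate 3 it was 0.31, at an unadjusted edgeR p of 0.0420, and without vehicle replicate 2 it was 0.01. The libraries with the highest Cxcr4, vehicle replicate 3 and BPA replicate 3, were also the ones with the fewest counts in their groups, and with all libraries thinned to the smallest total the log2 fold change of Cxcr4 was 0.25, at an unadjusted edgeR p of 0.180. Without the libraries rich in meningeal RNA (vehicle replicate 3 and BPA replicate 2) it was 0.35, at an unadjusted edgeR p of 0.0494, the highest value among the 18 alternative fits.

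Ackr3 (ENSMUSG00000044337.5, chr1:90203980-90216751, plus strand) encodes the atypical receptor that binds and clears Cxcl12. It was at 45.6, 49.0 and 47.3 CPM in vehicle and at 40.5, 49.1 and 39.7 CPM in BPA. BPA replicate 2 matched the highest vehicle library, while BPA replicates 1 and 3 were below all vehicle libraries. For Ackr3 the log2 fold change was -0.13 (SE 0.121), with an interval from 0.766 to 1.09 times the vehicle level. The log2 ratio of Cxcr4 to Ackr3 counts was 0.12, -0.06 and 0.57 in vehicle and 0.47, 0.21 and 0.77 in BPA. It averaged 0.21 ± 0.327 in vehicle and 0.48 ± 0.281 in BPA (SD, n = 3 each), with an exact two-sided permutation p of 0.4.

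Sst and Npy encode the neuropeptides somatostatin and neuropeptide Y, which mark an early-maturing class of interneurons. Sst (ENSMUSG00000004366.4, chr16:23889573-23890958, minus strand) was at 64.1, 85.5 and 85.6 CPM in vehicle and at 61.6, 77.0 and 73.8 CPM in BPA. The groups overlapped because vehicle replicate 1 was nearly as low as the lowest BPA library. The log2 fold change of Sst was -0.15 (SE 0.133), with an interval from 0.742 to 1.10 times the vehicle level. Without vehicle replicate 1 it was -0.28, at an unadjusted edgeR p of 0.0427, and without BPA replicate 1 it was -0.05.

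Npy (ENSMUSG00000029819.6, chr6:49822710-49829507, plus strand) had the fewest counts of the 9, from 98 to 215 per library. It was at 26.9, 30.3 and 34.3 CPM in vehicle and at 20.1, 30.9 and 28.6 CPM in BPA. BPA replicate 1 was below all vehicle libraries and the other BPA libraries lay inside the vehicle range. The log2 fold change of Npy was -0.21 (SE 0.163), with an interval from 0.682 to 1.10 times the vehicle level, and it was -0.03 without BPA replicate 1 and -0.36 without BPA replicate 2. For Gad1, Gad2, Erbb4, Cxcr4, Ackr3, Sst and Npy edgeR's unadjusted p lay between 0.204 and 0.836, and adjustment took it to 0.9998. Over all 9 genes the lower bounds of the intervals ran from 0.652 (Slc32a1) to 0.872 (Cxcr4) times the vehicle level.

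**Figure D3:**
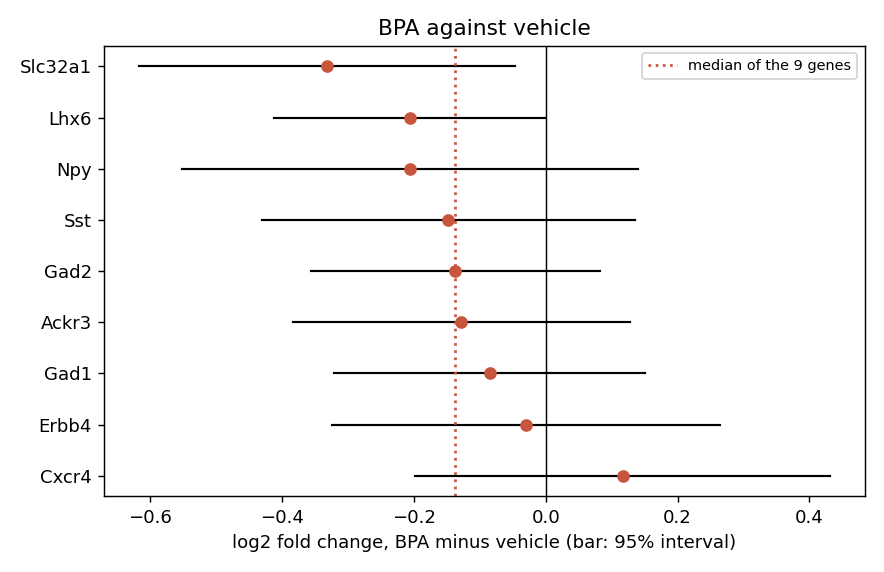
Log2 fold change of BPA against vehicle for the 9 interneuron genes, with 95% intervals from edgeR's quasi-likelihood fit and a dotted line at their median of -0.14. Intervals cross 0 for all but Slc32a1 and Lhx6, and that of Lhx6 ends just below 0.

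The genes did not vary from library to library as 1 block. Gad1, Gad2 and Erbb4 were each highest in vehicle replicate 1 and lowest in BPA replicate 2. Slc32a1, Sst and Npy were each lowest in BPA replicate 1, and within vehicle each was lowest in replicate 1, the library where Gad1, Gad2 and Erbb4 peaked. When log2 CPM was centered gene by gene and averaged over the 9 genes, the mean was 0.06, 0.04 and 0.09 in the vehicle libraries and -0.16, -0.04 and 0.02 in the BPA libraries. All 3 vehicle libraries were above all 3 BPA libraries on this mean, and BPA replicate 1 stood lowest. The 5 other genes whose pattern was most like that mean, out of 10001 genes at 10 CPM or more, were Ppp1r35, Pygo2, Repin1, Imp3 and Dusp8, with Pearson's r from 0.979 to 0.986 and Spearman's rho from 0.943 to 1 over the 6 libraries. None of the 5 is in the lists of interneuron genes used here, and a likeness over 6 libraries that share depth and scaling is a description.

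Genes of related pathways, of interneurons and their region of origin, and of other cell types were read from the same fit. They were grouped in lists drawn up by function or cell type. In the quasi-likelihood fit of all 6 libraries, none of the genes in any list passed the adjusted threshold. Nkx2-1 passed it in 7 of 18 alternative fits, among them DESeq2 and edgeR's exact test, Lhx8 in 3, the choroid plexus marker Ttr in 2 and the red blood cell marker Hba-a1 in 1. Of 21 interneuron transcription factor genes, 15 had lower means in BPA (median log2 fold change -0.12), 6 of them at an unadjusted edgeR p under 0.05. Over all genes tested, 49.5% had a log2 fold change below 0 and 1.18% were lower at that p. Without the libraries rich in choroid plexus RNA 13 of 21 were lower, with a median of -0.18, and without those rich in meningeal RNA 13 of 21 were lower, with a median of -0.25. Those with the smallest p were Nkx2-1 (log2 fold change -1.25), which specifies the medial ganglionic eminence and activates Lhx6, Lhx8 (-1.34), and the long noncoding RNA gene Dlx6os1 (-0.24). Of these, Nkx2-1 and Lhx8 were also listed as markers of the ventral telencephalon, so their values need not be those of migrating cells. The fold change of Lhx6 was thus small beside that of Nkx2-1, although a test between these genes was not made. Lhx6 was lower by 13.2% in the mean, where Nkx2-1 went from 35.9 ± 8.79 to 14.8 ± 5.48 CPM (SD, n = 3 each).

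Among 9 tested genes of GABA handling, 6 had lower means in BPA (median log2 fold change -0.03). Abat, which breaks GABA down, had the smallest p of this list (115 ± 5.97 CPM in vehicle and 93.4 ± 9.77 CPM in BPA, SD, n = 3 each, log2 fold change -0.31), followed by Slc12a5 (-0.25) and Slc6a11 (-0.28). A further list held ligands of Erbb4, Cxcr4 and Ackr3, the other ErbB receptors, the receptors of the peptides and the Sst relative Cort, and 10 of its 12 tested genes had higher means in BPA, with a median of 0.06 and none at an unadjusted p under 0.05. Cxcl12 was at 33.5 ± 8.24 CPM in vehicle and 34.0 ± 2.68 CPM in BPA, and its highest value was in vehicle replicate 3, where meningeal markers and Cxcr4 were also highest. The part of meningeal RNA in the Cxcl12 values was not tested. Nrg1 was at 19.8 ± 3.74 and 20.3 ± 5.45 CPM, and Nrg3 at 30.7 ± 1.09 and 32.8 ± 2.65 CPM. Sstr2, a somatostatin receptor gene, was at 85.2 ± 2.77 CPM in vehicle and 98.2 ± 4.50 CPM in BPA. Its BPA libraries were all above its vehicle libraries, as for 3.19% of all genes tested. The log2 fold change of Sstr2 was 0.21, opposite in sign to that of Sst, and it was followed by Erbb2 (0.31) and Nrg4 (0.40). Cxcl11 had 0 counts and Sstr5 at most 2 counts per library, too few to detect a difference at this depth.

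Markers of neighboring regions and other cell types moved with the groups as follows. Of 19 ventral telencephalon markers tested, 18 were lower in BPA with a median of -0.29, among them Nkx2-1, Lhx8 and Gbx1 (-1.03), and their summed level was 522 to 559 CPM in vehicle against 405 to 469 CPM in BPA. Nkx2-1 and Lhx8 are in both lists. The ventral count was 18 of 19 (median -0.40) without the libraries rich in choroid plexus RNA and 17 of 19 (median -0.43) without those rich in meningeal RNA. Of the 9 interneuron genes, 7 were lower in either case. Dorsal pallium markers were lower in 3 of 17 and higher in 14, with a median of 0.08 and summed levels that overlapped (3534 to 4236 CPM in vehicle, 4019.8 to 4174 CPM in BPA). Cajal-Retzius cells, microglia and vessels can also express Cxcr4. Their summed markers overlapped between the groups, at 607 to 660 and 640.0 to 764 CPM for 7 Cajal-Retzius markers, 61.7 to 87.6 and 73.0 to 79.8 CPM for 12 microglial markers and 385 to 422 and 372 to 418 CPM for 14 vessel markers. Gene by gene, Cajal-Retzius markers were higher in BPA in 5 of 7 (median 0.14), vessel markers in 8 of 14 and microglial markers in 4 of 10 tested. The Cajal-Retzius marker Trp73 was higher in every BPA library than in any vehicle library, which was so for 3.19% of all genes tested. Red blood cell markers were lower in 6 of 7 (286 to 599 and 334 to 416 CPM for 9 genes in all). The part of the ventral or any other list in the values of the 9 genes was not tested.

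**Figure D4:**
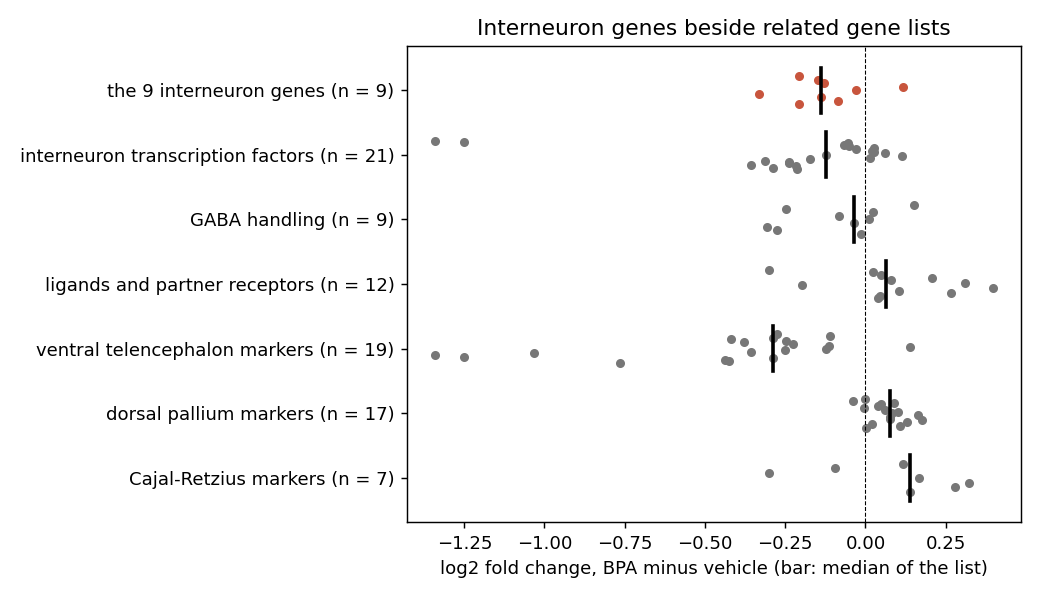
Log2 fold change of BPA against vehicle for the tested genes of 7 lists, 1 point per gene, with a bar at each list's median. The 9 interneuron genes (median -0.14) lie near the interneuron transcription factors (-0.12), the ventral telencephalon markers further below 0 (-0.29) and the dorsal pallium markers just above 0 (0.08).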

How the data were processed

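The deposited file holds raw read counts per gene symbol for 6 libraries, with no normalization. According to the study's methods, the authors aligned single-end reads of 50 bases with TopHat to GRCm38 and counted them with featureCounts on GENCODE gene models. The submitters' processing notes list TopHat2 2.0.14 and StringTie 1.2.4. The strand setting of the counting, and its treatment of multiply aligned reads, are not given in the sources used here. Groups were taken from the treatment labels, and replicates were numbered in accession order, so numbers pair no samples.

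Counts were analyzed in R 4.3.3 with edgeR 4.0.16: filterByExpr with a minimum count of 10 and total of 15, TMM scaling, and the quasi-likelihood test of BPA against vehicle without covariates. P-values were adjusted by Benjamini-Hochberg over all genes tested, with a threshold of 0.1. CPM used TMM-scaled library sizes. Standard errors and 95% intervals follow from the quasi-likelihood statistic. Log2 ratios of counts used a pseudocount of 0.5 (alternative 2). Exonic lengths, positions and overlaps came from GENCODE M21 (GRCm38), and promoter windows from RefSeq (GRCm38.p6). Scripts were tested on simulated data.

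The 9 genes and all lists were chosen with earlier results of these data known. Genes named beside the 9 were the 3 with the smallest p in each list, genes at or below 3 counts in every library, ligands and receptors of the 9, and the 5 with the most similar pattern. Some genes that this rule picks are not reported here. Alternatives were DESeq2 1.42.0, limma-voom (limma 3.58.1), edgeR's exact test, robust dispersion, 3 other scalings, 2 other filters and omission of each library. Omission of 2 libraries together and thinning were chosen after seeing the data.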

Additional observations from a re-analysis of the deposited data

How the results depend on the processing

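No paired analysis was possible because the labels give no replicate numbers. Across 18 alternative fits, 0 of the 9 interneuron genes passed an adjusted p of 0.1, and 6 to 8 of the 9 had a log2 fold change below 0. The log2 fold changes of Lhx6, Gad2, Slc32a1, Ackr3, Sst and Npy were below 0 and that of Cxcr4 was above 0 in all 18. That of Gad1 ran from -0.15 to 0.015 when 1 library was left out (above 0 without vehicle replicate 1). That of Erbb4 ran from -0.11 to 0.13 (above 0 without vehicle replicate 1 or, at 0.10, BPA replicate 2), and was 0.025 without the libraries rich in choroid plexus RNA (vehicle replicate 2 and BPA replicate 2) and 0.047 without those rich in meningeal RNA (vehicle replicate 3 and BPA replicate 2). The unadjusted p was under 0.05 in 15 of 18 alternatives for Slc32a1, 6 for Lhx6, 2 for Cxcr4 and 1 for Sst. The count of the 9 genes at that level, 2, was 1 with DESeq2, the exact test, library size alone, no filter, thinning or omission of the choroid-rich libraries, and 0 to 2 when 1 library was left out (0 without vehicle replicate 2 or BPA replicate 1). The log2 difference in the Gad1 to Gad2 ratio was 0.05, and it ran from -0.0022 (without BPA replicate 3) to 0.093 when 1 library was left out. The cause was not tested.

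Over all genes, the 0 past the adjusted threshold became 3 with DESeq2, 2 with the exact test, 19 with no filter (23501 genes tested), 15 without the choroid-rich libraries, 2 without the meninges-rich libraries and 0 to 1 when 1 library was left out. The 302 at an unadjusted p under 0.05 became 126 with DESeq2, 620 with no filter, 162 at a minimum of 10 CPM (10081 genes tested), 954 without the choroid-rich libraries and 194 to 708 when 1 library was left out. No other setting moved these counts by over 1.5 times. With 98 to 1319 counts per library, the depth limits Npy and Slc32a1 more than Gad2.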

Other observations

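Receptors for GABA and markers of other or later interneuron classes were also read. Of 14 GABA receptor subunit genes, all tested, 10 had lower means in BPA (median log2 fold change -0.08), and 0 had an unadjusted edgeR p under 0.05. Those with the smallest p were Gabra5 (26.1 ± 2.66 CPM in vehicle and 21.8 ± 2.69 CPM in BPA, SD, n = 3), Gabra4 (9.63 ± 0.201 and 11.6 ± 2.12 CPM) and Gabrd (2.14 ± 0.615 and 1.51 ± 0.591 CPM). Of 28 guidance, motility and subtype genes tested, 18 were lower, with a median of -0.03. Pnoc, the gene of the neuropeptide precursor prepronociceptin, was at 8.34 ± 1.91 CPM in vehicle and 4.24 ± 0.416 CPM in BPA. Its BPA libraries were all below its vehicle libraries, as for 3.56% of all genes tested. The log2 fold change of Pnoc was -0.95 (SE 0.252), and edgeR's unadjusted p of 0.00169 became an adjusted p of 0.9998. Efna5 (-0.41) and Cntnap2 (-0.20) followed. Pvalb and Vip, markers of interneuron classes that mature after birth, were at 0 to 1 counts in every library.

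In the remaining marker lists, the smallest p-values belonged to Neurog2 (log2 fold change 0.17), Neurod1 (0.16) and Neurod6 (0.10) in the dorsal pallium, Trp73 (0.28), Reln (0.14) and Lhx1 (0.32) in Cajal-Retzius cells, and Kdr (-0.14), Rgs5 (-0.09) and Pdgfrb (-0.09) in vessels. They were Tyrobp (-0.46) and Trem2 (0.26) in microglia, Col3a1 (0.37), Pdgfra (-0.14) and Ptgds (-0.42) in meninges, Clic6 (0.86), Otx2 (-0.34) and Ttr (0.71) in choroid plexus, and Hba-a1 (-0.43), Slc4a1 (-0.62) and Hbb-bs (-0.20) in red blood cells. Nkx6-2, a ventral marker, had at most 2 counts in any library.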
